A study of Mus musculus with 17 samples.

Results

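Cd24a (ENSMUSG00000047139) is 1 gene of the 47832 listed in at least 1 of 3 tables of read counts from mouse fetal liver cells. It was picked by its gene name from results of these libraries, because its counts were higher with a hairpin against Arid3a and were not higher with the microRNA miR-125b. Its values in those comparisons are therefore given as a description, with no test. The choice did not use the LUC libraries or those labelled Arid3a, and Cd24a was tested between these.

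All cells came from embryos of E12.5 to E13.5 of a B6J.129(Cg) Fezh/J strain whose allele Gt(ROSA)26Sortm1.1 makes Cas9 and EGFP from a CAG promoter. A guide against Gata1 (sgGata1) was carried by 14 of the 17 libraries, and the study calls these cells Gata1s, after GATA1s, a shortened GATA1 transcription factor. With doxycycline at 1 µg/mL for 48 h, they held LUC (a luciferase control, n = 3) or Arid3a (n = 3). With the same dose for 10 days they held sh-ctrl (a control hairpin, n = 3), shArid3a (n = 2, replicates 1 and 3) or miR-125b (n = 3). The WT group (n = 3) had a luciferase guide and a luciferase hairpin, sgLuc and shLuc, and its treatment label is a dash. The labels name neither a promoter for the second transgenes nor the culture, animal or clone behind a library, so p-values measure the spread between these libraries, which may be technical.

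Cd24a encodes CD24, also called heat-stable antigen, a short and heavily glycosylated protein held in the outer leaflet of the plasma membrane by a glycosylphosphatidylinositol (GPI) anchor. It has no cytoplasmic part, sits in lipid rafts with Src family kinases and is bound by P-selectin and by sialic acid-binding Siglec receptors. In mouse blood formation it is carried by erythroid cells, developing B cells and other immature cells, and it is widely used as a stage marker in flow cytometry. ARID3A is a DNA-binding protein of the AT-rich interaction domain family, and miR-125b is a microRNA that is abundant in stem and progenitor cells.

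The gene spans 43578284 to 43584265 of chromosome 10 and is read from the plus strand (GRCm38, GENCODE M21). Of the other genes listed in the tables of read counts, 0 overlap it. Its main transcript of 1816 bases has 2 exons, at 43579169 to 43579322 and at 43582604 to 43584265. The coding sequence is shown because it holds the whole protein in 231 bases. It is printed on the plus strand of GRCm38, between 43579254 and 43582765, with the 69 bases of exon 1 in lower case and the 162 bases of exon 2 in capitals.
Cd24a coding sequence: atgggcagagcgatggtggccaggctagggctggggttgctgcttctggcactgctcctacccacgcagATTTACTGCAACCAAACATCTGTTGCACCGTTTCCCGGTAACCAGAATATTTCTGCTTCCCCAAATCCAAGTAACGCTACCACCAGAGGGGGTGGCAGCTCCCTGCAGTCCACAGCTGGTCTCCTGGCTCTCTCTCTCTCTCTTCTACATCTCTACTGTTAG
It encodes 76 codons before the stop. An annotated processed copy, Gm15352 on chromosome 8, matches 259 bases of the transcript at 92.3% identity and had 0 counts in every library. A second copy, Gm6212, matches 218 bases at 96.8% and was not analysed here, and how reads shared with it were counted is not given in the sources used here.

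MicroRNAs pair with target transcripts mainly through their seed, bases 2 to 8. The mature sequence (RefSeq, GRCm38.p6, made from Mir125b-1 on chromosome 9 and Mir125b-2 on chromosome 16, both plus strand) is shown with its seed in capitals, followed by the stretches of the Arid3a 3′ UTR that hold an 8mer match, in capitals (GRCm38, plus strand).
miR-125b-5p: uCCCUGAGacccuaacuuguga
Arid3a 3′ UTR, match at base 951: cctcctgtgcCTCAGGGA
Arid3a 3′ UTR, match at base 1884: gggtaactggCTCAGGGA
The 3′ UTR of Cd24a has 1500 bases and holds 0 matches on the transcript strand to the 8mer CTCAGGGA, the 7mers CTCAGGG and TCAGGGA or the 6mer TCAGGG, the shorter of which lie within the longer. Among 840 3′ UTRs of tested genes within 10% of that length, 5.12% hold the 8mer, 16.5% and 14.6% the 7mers and 40.8% the 6mer. The 3′ UTR of Arid3a, of 3082 bases, holds 2, 6, 3 and 8 of them. A match is a description of the letters, and its absence says only that they are not in this window.

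Library totals were 31339238 to 38678649 counts for LUC and the libraries labelled Arid3a, 31992089 to 40859301 for sh-ctrl, shArid3a and miR-125b, and 16362439 to 19212193 for WT. Arid3a itself was at 67.2 ± 3.09 CPM in LUC (SD, n = 3; CPM are counts per library size after TMM scaling within a table, as edgeR gives them) and 70.9 ± 11.3 in the libraries labelled Arid3a (SD, n = 3). Its log2 fold change there was 0.08 (edgeR adjusted p = 0.737), so the counts do not show the label's transgene as more Arid3a, and a transgene without the counted sequence would not be seen. It was 52.9 ± 6.71 CPM in sh-ctrl (SD, n = 3), 19.7 ± 1.03 in shArid3a (SD, n = 2) and 8.97 ± 1.60 in miR-125b (SD, n = 3), with log2 fold changes of −1.43 (edgeR adjusted p = 0.0368) and −2.56 (0.000282). WT had the highest Arid3a, 275.5 ± 35.5 CPM (SD, n = 3).

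Cd24a was read deeply in every library, with 1137 to 15049 counts. In LUC it was at 92.1, 93.9 and 69.0 CPM in replicates 1, 2 and 3. The libraries labelled Arid3a had 31.4, 38.1 and 50.1 CPM, all under the lowest LUC library. The sh-ctrl libraries had 177, 109 and 123 CPM, and the replicate 1 value stood above the other two. The shArid3a libraries, replicates 1 and 3, had 409 and 422 CPM, above every other library of the series. The miR-125b libraries had 125.3, 90.2 and 99.996 CPM, of which replicate 1 lay inside the range of sh-ctrl. The WT libraries had 183, 177 and 162 CPM.

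**Figure D1:**
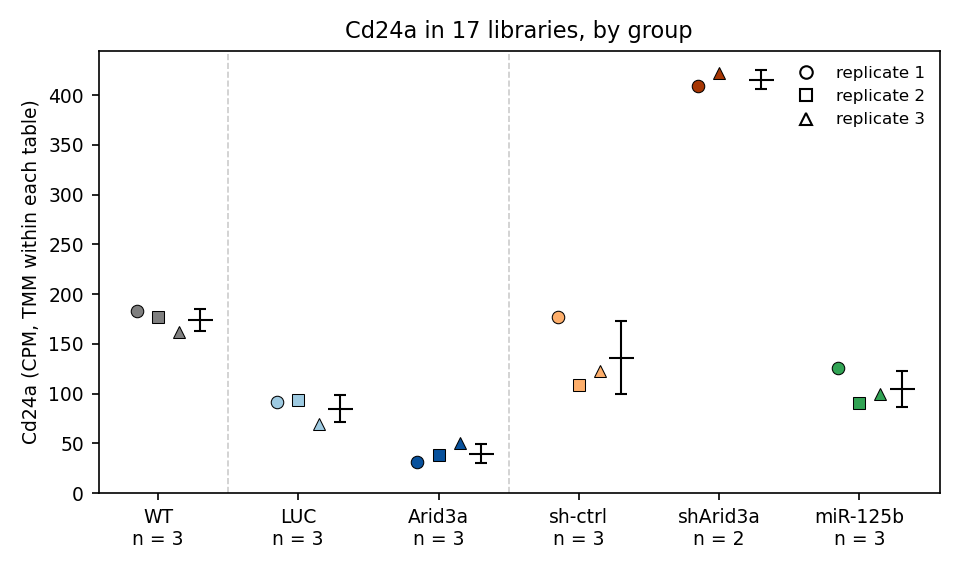
Cd24a level in CPM (TMM scaling within each of the 3 tables, linear axis from 0) for each of the 17 libraries, by group, with symbols for the replicate number and bars for the mean ± SD. The shArid3a libraries (409 and 422 CPM) lie above all others, and the libraries labelled Arid3a (31.4 to 50.1 CPM) lie below all others; dashed lines separate the tables.

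The order of the group means was shArid3a (416 ± 9.25 CPM; SD, n = 2), WT (174 ± 11.0; SD, n = 3), sh-ctrl (136 ± 36.3; SD, n = 3), miR-125b (105 ± 18.1; SD, n = 3), LUC (85.0 ± 13.9; SD, n = 3) and the libraries labelled Arid3a (39.9 ± 9.50; SD, n = 3). Only at the 2 ends of this order did neighbours stand apart. The shArid3a and WT libraries did not overlap, and neither did LUC and the libraries labelled Arid3a. WT overlapped sh-ctrl, sh-ctrl overlapped miR-125b and miR-125b overlapped LUC, each with a difference under the sum of their SDs. With TMM scaling over all 17 libraries, miR-125b and LUC no longer overlapped (117 and 78.2 CPM). With library totals alone, sh-ctrl and miR-125b did not overlap (147.7 and 99.5 CPM). Levels across tables were not tested, since genotype, doxycycline time, second transgene and table cannot be told apart there.

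Per kilobase of transcript, which allows genes to be compared, Cd24a was among the more abundant messages of these cells. It stood at 229 CPM per kb in shArid3a, above 97.4% of the protein-coding genes with a mean of at least 1 CPM. In sh-ctrl it was at 75.2 CPM per kb, above 93.0% of them, and in miR-125b at 58.0, above 88.5%. In LUC it was at 46.9, above 87.2%, in the libraries labelled Arid3a at 22.0, above 73.2%, and in WT at 96.0, above 95.7%. In such bulk libraries, fewer cells carrying a message and less of it per cell cannot be told apart.

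The hairpin comparison asks what a lower level of Arid3a changes in Gata1s cells, and it is the one on which Cd24a was chosen. Cd24a was 3.05-fold higher in shArid3a than in sh-ctrl, a log2 fold change of 1.61 (SE 0.21, 95% interval 1.14 to 2.08). This interval and those with miR-125b below take no account of that choice and are no test. The lowest shArid3a library lay above the highest sh-ctrl library, and how many of all genes stood apart in this way was not counted. Among 8780 genes whose average log2 CPM was 3 or more, it had the 6th highest change. In this comparison 0.0857% of 14004 genes were called at an edgeR adjusted p under 0.05, 0.05% as higher and 0.0357% as lower. Leaving out any 1 library gave log2 fold changes of 1.45 to 1.82.

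The miR-125b comparison asks whether the microRNA changes the same genes. Its calls covered 24.4% of the 14004 genes, 12.1% as higher and 12.2% as lower. The Cd24a value was a log2 fold change of −0.37 (SE 0.19, 95% interval −0.80 to 0.05), with overlapping libraries. It was −0.15 without sh-ctrl replicate 1, −0.52 without sh-ctrl replicate 2 and −0.57 with library totals as scaling. In the fit with the replicate number as a block it was −0.36 (SE 0.15), and Cd24a was lower with miR-125b at 3 of 3 replicate numbers. No label pairs libraries by these numbers, and the data do not settle it for replicate 2. The value was thus below 0 at every setting and smaller in size than that with the hairpin. The Arid3a message itself was at its lowest with miR-125b. Set directly against shArid3a, Cd24a was 3.95-fold lower in miR-125b, a log2 difference of −1.98 (SE 0.21, 95% interval −2.46 to −1.51). This was the 10th lowest of the 8780 genes, and calls in that comparison covered 1.35% of 14004 genes. The comparisons share libraries, so these values are not independent of each other.

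In the libraries labelled Arid3a, the one comparison in which Cd24a could be tested, its log2 difference from LUC was −1.09 (SE 0.19, 95% interval −1.54 to −0.65), or 2.13-fold lower. It was lower in 3 of 3 libraries than in every LUC library, and how many of all genes stood apart in this way was not counted. The unadjusted p was 0.000623 and the edgeR quasi-likelihood adjusted p 0.0786, which misses the threshold of 0.05. No gene passed it: 0 of 13495 were called (0%), 2885 had an unadjusted p under 0.05, and the lowest adjusted p was 0.0675. DESeq2 called 1201 genes, Cd24a among them (log2 fold change −1.09, DESeq2 adjusted p = 2.71e-06). Among the 9036 genes whose average log2 CPM was 3 or more, the Cd24a value was the 9th lowest. With replicate 1 of that group left out, the value was −0.94 and passed (edgeR adjusted p = 0.00264), and 3198 genes were then called.

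**Figure D2:**
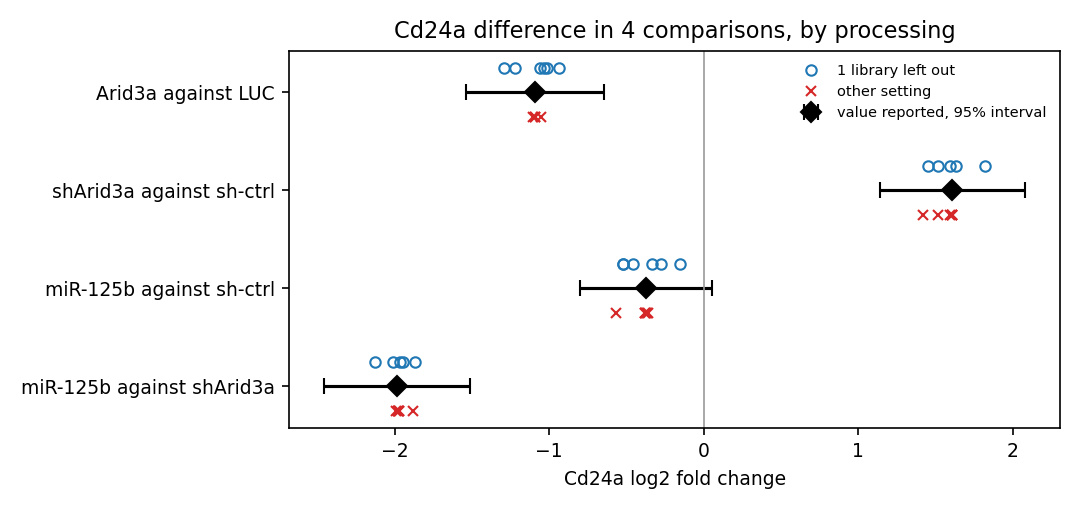
Cd24a log2 fold change (horizontal axis) in the 4 comparisons: black diamonds with bars are the values reported and their 95% intervals, open circles leave out 1 library each, and crosses change the scaling, filter, tool, block or libraries fitted. The shArid3a value of 1.61 and the values of −1.09 and −1.98 keep their sign at every setting drawn, and the miR-125b value of −0.37 ranges from −0.57 to −0.15. Apart from that of the libraries labelled Arid3a, the intervals take no account of how Cd24a was chosen.

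Over the 14 Gata1s libraries, with log2 CPM centred within each table, the Pearson correlation of Cd24a with Arid3a was 0.079 (n = 14), and it was 0.091 in the 8 libraries of sh-ctrl, shArid3a and miR-125b. The choice of Cd24a, high with shArid3a and not with miR-125b, set these values, and nothing is read from them. Libraries share their table and control, so the correlations below are a description too.

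Few genes had the shape for which Cd24a was picked, and its own place among them was largely set by that choice. Of those 8780 genes, 32 had a log2 fold change of at least 1 in shArid3a, 25 of them without a predicted-gene name. Of those 25, 5 were also at −1 or below in miR-125b against shArid3a, and only Cd24a had shArid3a libraries clear of the other 6 of the table. The 4 that overlapped were Myh10, S1pr4, Ddx3y and Ighm, with standard errors from 0.61 to 2.01 against 0.21 for Cd24a. In the libraries not used for this shape, 24 of the 25 genes were tested, Cd24a among them. Of these, 21 were lower in the libraries labelled Arid3a than in LUC, against 48.6% of all 13495 genes, at any level. The 24 genes share the same libraries and are not independent of each other. Their median log2 difference was −0.16, against 0.01 over all genes, and 5 were at −1 or below. These were Nkg7 (−2.003, SE 0.51), Ighm (−1.41, SE 0.68), Gapdh (−1.11, SE 0.75), Cd24a (−1.09, SE 0.19) and Lgals1 (−1.06, SE 0.20). In all of these but Cd24a, the shArid3a libraries overlapped the others of their table. These counts in the libraries labelled Arid3a were made after the values were seen. Of all 9036 genes at that level, 16 were at −1 or below.

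The gene that ran most against Cd24a was Csf2rb, the common beta chain of the receptors for IL-3, IL-5 and GM-CSF. Of 8477 genes ranked over the 14 libraries, it had the lowest Pearson correlation, −0.96, and also the lowest Spearman correlation, −0.96. Taken apart, the hairpin and miR-125b table gave −0.97 (n = 8, rank 8474 of 8477 from the highest) and the other −0.95 (n = 6). Deviations from group means gave −0.76 (n = 14). Csf2rb was picked on these same libraries, so their parts are no separate support. Csf2rb was at 138.6, 143 and 156.5 CPM in LUC and at 430.5, 243 and 238 in the libraries labelled Arid3a. It was at 167, 239 and 184 CPM in sh-ctrl, 56.9 and 72.4 in shArid3a, and 158, 222 and 206 in miR-125b. Csf2rb was thus low where Cd24a was high in shArid3a, and high where Cd24a was low in the libraries labelled Arid3a. Within sh-ctrl, within miR-125b and within the libraries labelled Arid3a, the order of the 3 libraries by Csf2rb was the reverse of that by Cd24a. It was not in LUC, nor in shArid3a, where the library higher in Cd24a was also the higher in Csf2rb. In level, WT departs from the other groups, with Csf2rb at 484, 532 and 542 CPM beside a Cd24a level above sh-ctrl. Within WT the order by Csf2rb was again the reverse of that by Cd24a (183, 177 and 162 CPM).

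**Figure D3:**
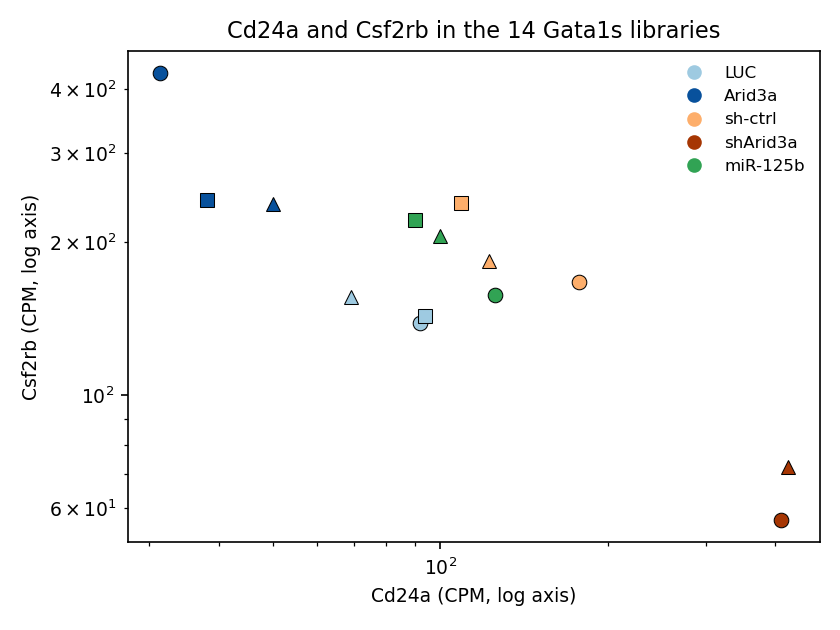
Cd24a (horizontal) against Csf2rb (vertical) in CPM on log axes, 1 point for each of the 14 Gata1s libraries, with colours for groups and symbols for replicate numbers (circle 1, square 2, triangle 3). Points run from the libraries labelled Arid3a (Cd24a 31.4 to 50.1 CPM, Csf2rb 238 to 430.5) to shArid3a (Cd24a 409 and 422 CPM, Csf2rb 56.9 and 72.4), a Pearson correlation of −0.96 on the log scale centred by table.

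Csf2rb2, its near-identical paralog that serves IL-3 alone, was next at −0.92, and how reads shared by the pair were divided is uncertain. Csf2rb2 differed from Csf2rb in miR-125b, where it was at 78.0 ± 16.7 CPM against 44.8 ± 7.78 in sh-ctrl (SD, n = 3 each). Zfp91 (−0.90), a zinc finger protein, and Smad5 (−0.90), a transducer of BMP signals, were also among the 5 lowest. No gene reached a positive correlation of 0.9. The 5 most alike were Thumpd3 (0.88), Usp39 (0.88), a splicing factor, Triap1 (0.88), Nfyb (0.88), a subunit of the CCAAT-binding factor NF-Y, and the pseudogene Mpc1-ps (0.87). Their changes were small beside that of Cd24a: Thumpd3 was at 88.0 CPM in shArid3a and 65.1 in sh-ctrl. The list depends on the measure, since 1 of the 5, Usp39, was also among the top 5 by Spearman correlation and 0 by Pearson correlation over 8 libraries. The Csf2rb level by group is drawn beside that of Arid3a.

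**Figure D4:**
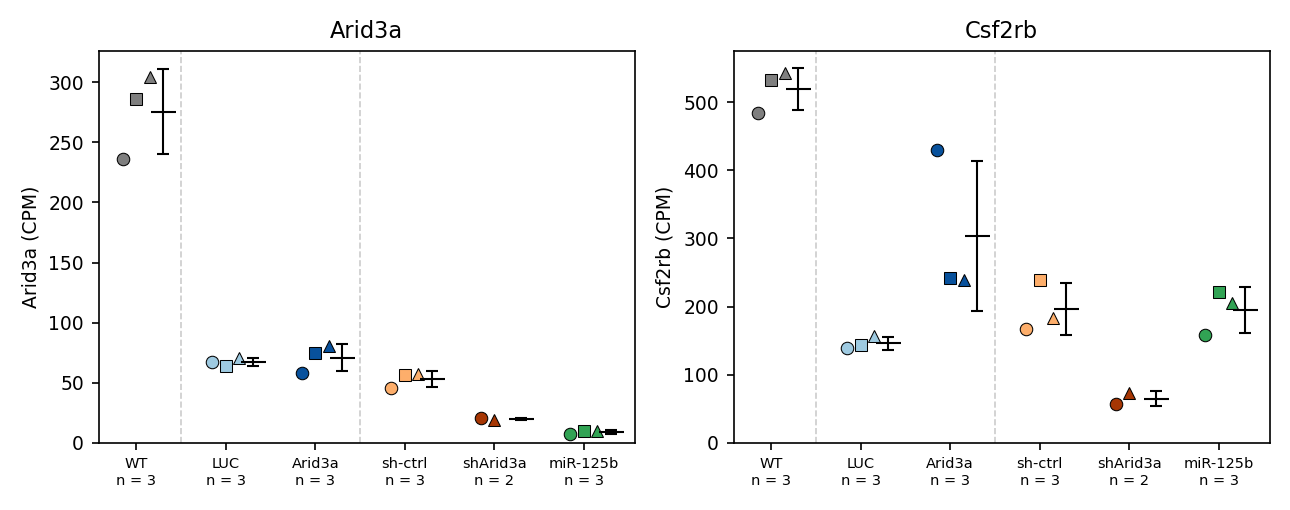
Arid3a (left) and Csf2rb (right) in CPM (TMM within each table, linear axes from 0) for the 17 libraries, by group, with circles, squares and triangles for replicates 1, 2 and 3 and bars for the mean ± SD. Arid3a is lowest in miR-125b (8.97 CPM) and Csf2rb in shArid3a (56.9 and 72.4 CPM), while Csf2rb in miR-125b (158 to 222 CPM) spans the range near sh-ctrl (167 to 239 CPM).

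The machinery that builds and attaches the GPI anchor was looked at because CD24 cannot stay on the surface without it. Of 28 genes listed, 26 were tested, and with shArid3a edgeR called 0 (9 with an unadjusted p under 0.05, 2 higher by DESeq2; median log2 fold change 0.12 against −0.02 over all genes). With miR-125b 3 were called higher and 8 lower, 42.3% of the list beside 24.4% of all genes, with a median of 0.00 against −0.03. Piga, the catalytic subunit of the first step, was at 21.0 ± 1.48 CPM in miR-125b against 57.1 ± 19.5 in sh-ctrl (SD, n = 3 each), and its log2 value was −1.44 (edgeR adjusted p = 0.00548). Pigm, the first mannosyltransferase, was at −0.74 (0.00943) and Dpm1, which makes the mannose donor, at −1.71 (0.011). Pigp and Pigu, subunits of the first enzyme and of the transamidase that attaches the anchor, were at 0.65 (0.0208) and 0.55 (0.0202). With library totals as scaling, which shifted the median of all genes with miR-125b from −0.03 to −0.22, 0 were called higher and 9 lower. That scaling split all calls with miR-125b into 890 higher of 3342, against 1700 of 3414. Without sh-ctrl replicate 3, which lowered all calls with miR-125b to 734, 0 genes of this list were called higher and 3 lower, and without miR-125b replicate 1 these were 0 and 4. In shArid3a the same scaling moved the median of all genes from −0.02 to −0.22 and that of the list from 0.12 to −0.07. There the 5 genes named had log2 fold changes of −0.52 (Piga), −0.52 (Pigm), −0.86 (Dpm1), 0.66 (Pigp) and 0.51 (Pigu), none of them called.

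Other GPI-anchored proteins were read beside Cd24a. Of 26 listed, 13 were tested with shArid3a, edgeR called 0 (1 with an unadjusted p under 0.05, 1 lower by DESeq2), and the median log2 fold change was −0.42. With 0.0857% of all genes called, a count of 0 says little about the list. Its summed level was 988.5 to 1254 CPM in shArid3a against 802 to 951 in sh-ctrl, and 447.5 to 560 in the libraries labelled Arid3a against 641 to 777 in LUC. Ly6e, whose libraries are given below, made up most of each of these sums. By gene, 4 of the 13 tested were higher and 9 lower in shArid3a. In the libraries labelled Arid3a, 6 of the 12 tested were higher and 6 lower. Nt5e (CD73), which makes adenosine, was at 20.7, 13.2 and 17.5 CPM in sh-ctrl, 7.34 and 9.88 in shArid3a, and 1.47, 0.463 and 0.733 in miR-125b. It fell with miR-125b by 4.28 on the log2 scale (edgeR adjusted p = 0.00107). Cd52, a small glycoprotein of leukocytes, rose with miR-125b (log2 fold change 1.00, edgeR adjusted p = 0.0303) and was at −0.71 in shArid3a. Plaur and Cd14 were at mean levels of 0.751 and 1.33 CPM with miR-125b, 0.0257 and 0.0472 in sh-ctrl and 0.0567 and 0.0136 in shArid3a. They passed the filter on low counts through the miR-125b libraries, so their calls as higher there followed from it. With them, 3 of the list were called higher and 1 lower with miR-125b, 30.8% beside 24.4% of all genes. These counts were 2 and 2 with library totals and 1 and 1 without sh-ctrl replicate 3. Ly6e, an abundant member of the Ly6 family, had values in the same directions as Cd24a: 0.47 in shArid3a, −0.55 in miR-125b and −0.60 in the libraries labelled Arid3a, none of them called. Its libraries were at 515 to 613 CPM in LUC, 336 to 405 in the libraries labelled Arid3a, 662.5 to 768 in sh-ctrl, 878 and 1108 in shArid3a, and 366 to 697 in miR-125b.

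Of 6 genes for CD24 partners and their signalling, 4 were tested, and edgeR called 0 with shArid3a (1 with an unadjusted p under 0.05, 1 lower by DESeq2). Siglecg, the Siglec receptor for CD24, had 0 counts in all 14 Gata1s libraries. With miR-125b 2 of the 4 were called, beside 24.4% of all genes. Ptpn6 (SHP-1), a phosphatase recruited by Siglecs, was called higher (0.69, edgeR adjusted p = 0.0374), and its relative Ptpn11 (SHP-2) lower (−0.66, 0.0232). The call for Ptpn6 or Ptpn11 rests on single libraries: 0 of the list were called without sh-ctrl replicate 3 or without miR-125b replicate 1, and with library totals 0 were higher and 1 lower. Hmgb1, a nuclear protein that CD24 binds when it is released from cells, was at 0.30 in shArid3a and 0.35 in miR-125b, and Selp, P-selectin, had group means of 1.51 CPM or lower in the Gata1s cells and 6.57 in WT; neither was called with shArid3a or miR-125b.

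Of 13 Src family kinases and raft proteins, 8 were tested, and with shArid3a edgeR called 0 (4 with an unadjusted p under 0.05, 1 higher by DESeq2; median −0.30). With miR-125b 2 were called, 25% of the list beside 24.4% of all genes. Src fell (−1.23, edgeR adjusted p = 0.00564) and Fyn rose (0.56, 0.0153), but with library totals 0 genes of this list were called higher and 2 lower, and without sh-ctrl replicate 3 0 and 1. Lck, at a low level, had the values nearest to the pattern of Cd24a. It was at 2.97, 2.64 and 3.47 CPM in sh-ctrl, 8.35 and 7.05 in shArid3a, and 2.29, 1.88 and 1.11 in miR-125b. Its log2 fold change was 1.35 in shArid3a (edgeR adjusted p = 0.101), −0.78 in miR-125b (0.105) and −2.13 between them (0.024). The T cell list held its highest summed level of the Gata1s libraries in shArid3a, 2.45 to 2.95 CPM against 0.932 to 1.08 in sh-ctrl. Of its 6 markers only 1 was tested. Cd3e, Cd4, Cd8a and Trbc1 had 0 counts in every Gata1s group, so the sum rests on the few left. The part of this list in the Lck value was not tested.

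CD24 is mostly carbohydrate by mass, so genes of O-glycosylation and sialylation were also read. Of 19 listed, 17 were tested, and with shArid3a edgeR called 0 (6 with an unadjusted p under 0.05, 1 higher and 3 lower by DESeq2; median 0.01). With miR-125b 5 were called, 29.4% of the list beside 24.4% of all genes. Called higher were 2, Gne (0.51, edgeR adjusted p = 0.0201) and Nans (0.53, 0.0246), both enzymes of sialic acid synthesis. The 3 called lower were Galnt7 (−0.69, 0.0104), which adds the first sugar, Gcnt1 (−0.50, 0.0332), which branches the chain, and St3gal1 (−0.57, 0.0463), which caps it with sialic acid. With library totals, 0 were called higher and 6 lower, and without sh-ctrl replicate 3 none was called (0 and 0). Leaving out any other single library left 0 or 1 higher and 1 to 3 lower. In the libraries labelled Arid3a, edgeR called 0 genes of the 5 lists, as it called 0% of all genes. Their members with an unadjusted p under 0.05 numbered 6, 4, 0, 3 and 2 in the order above.

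None of the nearest tested protein-coding genes showed the Cd24a pattern at its size. On one side lie 1700021F05Rik (37.3 kb away), Gm9803 (53.6 kb) and Bend3 (62.9 kb), and on the other Qrsl1 (289.9 kb), Rtn4ip1 (317.5 kb) and Crybg1 (366 kb). None was called with shArid3a, where their log2 fold changes were 0.08, 1.096, −0.38, 0.17, 0.24 and −1.55; Gm9803 and Crybg1 were at mean levels under 1 CPM there. With miR-125b 1700021F05Rik rose from 17.5 to 34.6 CPM (0.98, edgeR adjusted p = 0.00609), as did Gm9803 at 0.443 and 1.42 CPM (1.67, 0.0373). Rtn4ip1 had shArid3a libraries (19.2 and 19.4 CPM) above those of sh-ctrl (up to 17.5 CPM) and miR-125b (up to 15.9 CPM). Its log2 fold change was −0.08 with miR-125b and −0.0002 in the libraries labelled Arid3a, neither called.

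**Figure D5:**
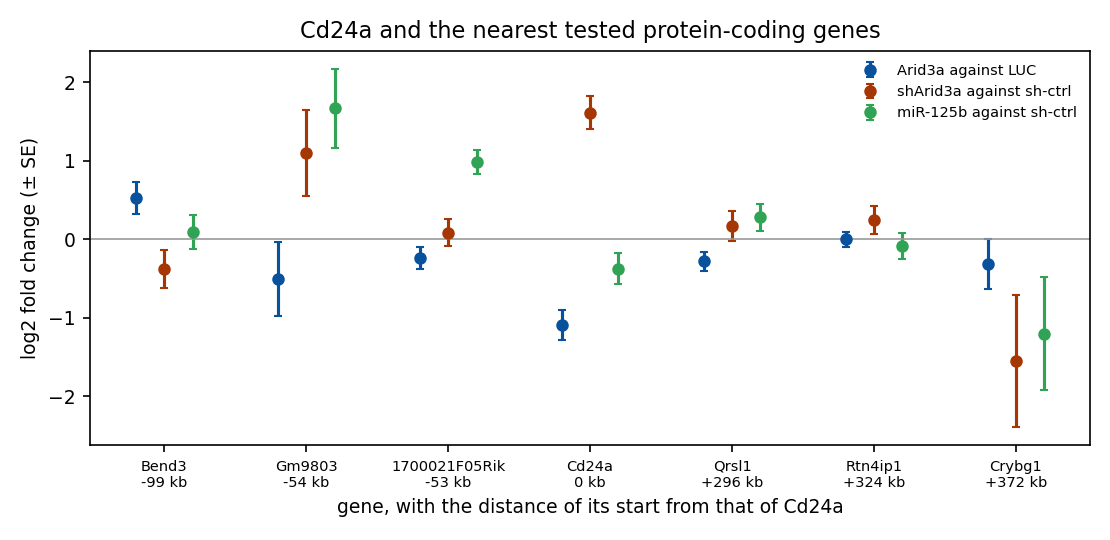
Log2 fold change (± SE) of Cd24a and of the 3 nearest tested protein-coding genes on each side, in chromosome order, with the distance of each start from that of Cd24a in kb, for 3 comparisons in different colours. Cd24a stands at 1.61 with shArid3a and −1.09 in the libraries labelled Arid3a, while 1700021F05Rik stands at 0.08 and −0.24.

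Cd24a marks several blood cell types, so marker lists were read beside it. Erythroid markers summed to 544 to 808 CPM in sh-ctrl, 536 to 626 in shArid3a, 350 to 374 in miR-125b, 791.5 to 883 in LUC and 676 to 1415 in the libraries labelled Arid3a. Of the 8 tested, 0 were called with shArid3a, where 0.0857% of all genes were. With miR-125b 3 were called lower (37.5% beside 24.4% of all genes). Slc4a1 was at 0 in all but WT and the libraries labelled Arid3a. Megakaryocyte markers, high in all Gata1s libraries, summed to 3312 to 4943 CPM in sh-ctrl, 3434 to 3656 in shArid3a and 3016 to 3885 in miR-125b, with 0 of 12 called with shArid3a. With miR-125b, 1 was called higher and 6 lower (58.3% beside 24.4% of all genes). Without sh-ctrl replicate 3, with 734 genes called in all, these were 0 and 2, and erythroid calls were 0 and 1. In LUC they summed to 3259 to 3785 CPM and in the libraries labelled Arid3a to 3212 to 5186. B cell markers summed to at most 1.74 CPM in any Gata1s library and to 15.8 to 21.2 in WT, with Pax5 at 0 in WT.

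Granulocyte markers summed to 46.6 to 97.2 CPM in sh-ctrl, 33.3 to 63.9 in shArid3a and 78.6 to 149 in miR-125b. They reached 163.5 CPM in 1 LUC library, against 5.51 in the lowest, and 14270 to 19510 in WT, and whether this moves with the WT level of Cd24a was not tested. Mast cell and basophil markers spread from 2.47 to 387 CPM over the Gata1s libraries and from 1406 to 1639 in WT. Macrophage markers were at most 7.77 CPM, dendritic cell markers at most 2.45, and hepatocyte markers at most 4.65 in Gata1s libraries. Endothelial and stromal markers reached 69.1 CPM in 1 miR-125b library, with Cdh5 and Col3a1 at 0. None of these lists had a gene called with shArid3a or in the libraries labelled Arid3a. There 0.0857% and 0% of all genes were called, so this says little about the lists. With miR-125b, 2 of 5 granulocyte, 2 of 8 mast cell and basophil and 1 of 1 hepatocyte markers tested were called higher. Of all genes 12.1% were called higher there. Over the sh-ctrl libraries together, 6 of the 10 granulocyte markers had at most 3 counts, and hepatocyte markers summed to 0.557 to 1.03 CPM. Genes can pass the filter on low counts through the miR-125b libraries alone, so nothing is read from these shares. The other lists of this paragraph had no call with miR-125b. The part of these lists in the Cd24a values was not tested.

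Xist and 4 Y-linked genes (Ddx3y, Eif2s3y, Kdm5d, Uty), looked at after the values were seen, also differed between libraries. The sex of the embryos is not given in the sources used here. Xist was at 430.5, 431 and 945 CPM in sh-ctrl, 63.4 and 147 in shArid3a, and 15.3, 224 and 175.5 in miR-125b. The Y-linked genes summed to 99.3, 0.205 and 5.86 CPM in sh-ctrl, 157.5 and 10.1 in shArid3a, and 124, 0.899 and 1.19 in miR-125b. The shArid3a libraries, far apart in Y-linked level, had Cd24a at 409 and 422 CPM. In sh-ctrl, miR-125b and the libraries labelled Arid3a, the library highest in Y-linked genes was also highest in Cd24a (177, 125.3 and 50.1 CPM). In LUC the library highest in Y-linked genes was lowest in Cd24a (69.0 CPM). The part of embryo sex in the Cd24a values was not tested. In LUC the Y-linked sum was 0.704, 0.685 and 25.4 CPM, and in the libraries labelled Arid3a 0, 0.147 and 28.8 CPM. Xist also differed among libraries low in Y-linked genes: replicate 2 was at 1243 CPM in LUC, 431 in sh-ctrl and 224 in miR-125b.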

How the data were processed

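RNA was sequenced from 17 libraries of 6 groups. The authors deposited raw read counts per gene in 3 tables, not normalized, and all values were whole numbers. Total RNA came from Zymo Quick-RNA preparations, per the labels' protocols. The submitters' processing notes name fastp, HISAT2 2.0.5, featureCounts and mm10. The use of strand and the handling of reads with several matches are not given in the sources used here. Counts are reads without molecular identifiers. Replicate 2 of shArid3a was not analysed here.

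Groups came from the labels. Tables were joined by Ensembl identifier: 47832 genes in all, 46880 in every table and 47224 matched to GENCODE M21. Each table was fitted with edgeR 4.0.16 (R 4.3.3): TMM, filterByExpr, glmQLFit, glmQLFTest, 1 term per group. Benjamini-Hochberg adjusted p-values under 0.05 over all genes tested were called. The 3 groups of the hairpin table share 1 estimate of the spread. Log2 values used a prior count of 2. DESeq2 1.42.0 was an alternative. Tests were tried on simulated data first.

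Cd24a, the 5 gene lists and the 10 marker lists were chosen with earlier results of these data known. The rule named Arid3a, the 3 genes of each list with the smallest p with shArid3a and with miR-125b, 3 neighbours a side, and the 5 genes most and least correlated with Cd24a, of which 1 is not reported here. Csf2rb and its like were chosen on the hairpin libraries too and were not tested. Of 28 anchor genes 27 matched by symbol. No Cd24a promoter or protein sequence was used here.

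Replicate numbers were checked by correlating same-numbered deviations from group means. For sh-ctrl and miR-125b they were 0.449, 0.148 and 0.492, all above 0.1. Replicate 3 of sh-ctrl and replicate 2 of miR-125b gave 0.289, above the 0.148 of replicate 2. The data thus do not settle the pairing of replicate 2, and no label gives it. Between LUC and Arid3a numbers they were 0.0772, 0.316 and −0.162. Between sh-ctrl and shArid3a they were 0.273 and −0.115. Neither was taken as paired.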

Additional observations from a re-analysis of the deposited data

How the results depend on the processing

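The log2 fold changes of Cd24a kept their sign at every setting run. In shArid3a they ran from 1.42 (library totals) to 1.82, in miR-125b from −0.57 to −0.15, and between these groups from −2.13 to −1.87. In the libraries labelled Arid3a the value passed the threshold with DESeq2 (−1.09), with no filter on low counts (−1.09, edgeR adjusted p = 0.0359) and without replicate 1 of that group (−0.94). Leaving out each library gave −1.29 to −0.94, with edgeR adjusted p from 0.00264 to 0.375. Counts of called genes moved more. For the libraries labelled Arid3a they were 1201 with DESeq2, 71 with no filter and 0 to 3198 leaving out each library. For shArid3a, where 12 genes were called, they were 1339 with DESeq2, 1237 with no filter, 20 with library totals, 0 without ribosomal RNA-like genes (3569 with an unadjusted p under 0.05) and 2 to 11 leaving out each library. For miR-125b they were 734 (without sh-ctrl replicate 3) to 2872 leaving out each library. Between miR-125b and shArid3a, where 189 were called, they were 715 with DESeq2, 715 with no filter and 12 to 329 leaving out each library. The cause was not tested.

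With a replicate block, the value of Cd24a against LUC was −1.11 (edgeR adjusted p = 0.201). It was 1.52 in shArid3a, −0.36 in miR-125b and −1.88 between these. Called genes then numbered 0, 15, 3687 and 255, none over 1.5 times from the count without the block. With 1 shArid3a library left out, the other was assumed to vary like the other groups. Cd24a had 1137 or more counts in each library, and shArid3a had 2 libraries.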
